A study of Mus musculus with 8 samples.

Results

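Tmprss11a, Aoc1, Ptpn5, Chst8, Fam83e, Sbp and Olfm4 are 7 mouse genes, some of them known from epithelial tissues. The 7 genes had low counts in cells enriched for macrophages from the fat pads of Aldara-treated mice and higher counts in those of control mice. They were chosen by name, each matched through its Ensembl identifier to 1 row of a deposited table of 56748 rows, and all 7 were among the 16780 genes with enough counts to be tested. The choice rested on their low values in Aldara and on their spread over the controls, so both are given as a description with no test. RNA came from inguinal fat pads of wild-type (WT) female mice, whose age is not given in the sources used here. In the Aldara group (4 libraries) mice received a 62.5 mg dose of Aldara, a cream that carries 5% imiquimod and activates Toll-like receptor 7, on the shaved back on 3 days in a row. In the Vehicle group (4 libraries) they received an equal volume of Boots Aqueous Cream with 10% Vaseline Lanette Cream, and in both groups tissue was taken 24 h after the last dose. Cells that bound F4/80 beads were pooled from 6 fat pads per library (about 30000 cells, over 90% of them F4/80+CD64+ by flow cytometry). The labels do not say whether pools of a group shared animals, so the spread behind each p-value is that of the pools and may be technical.

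The inguinal fat pad of a female mouse surrounds a mammary gland, whose ducts are lined by luminal and basal epithelial cells, and oestrogen and progesterone act on a luminal subset. Epithelial cells of glands and mucosae display or secrete proteases, amine-degrading enzymes, sulfated glycoproteins and mucosal matrix proteins. Tmprss11a encodes a membrane-anchored serine protease of stratified and airway epithelia. Aoc1 encodes diamine oxidase, which breaks down histamine and the polyamine putrescine, and Chst8 a Golgi enzyme that sulfates N-acetylgalactosamine on glycans of pituitary hormones. Olfm4 encodes a secreted glycoprotein of intestinal crypts and of neutrophils, and Sbp a spermine-binding protein secreted by the mouse prostate under androgen control. Fam83e belongs to a family of scaffold proteins for casein kinase 1. Ptpn5 encodes the tyrosine phosphatase STEP, best known from neurons, where it acts on mitogen-activated protein kinases and on Fyn.

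Whether the fat pad libraries held epithelial RNA was checked against defining markers, and it was abundant in all 8 of them. The 14 general epithelial genes (Epcam, keratins, claudins and others) summed to between 13100 and 16800 CPM in Aldara and between 13400 and 19100 CPM in Vehicle. CPM is the count of a gene relative to the scaled library total. The group means were 15100 ± 1770 and 16100 ± 2590 CPM (SD, n = 4 each), and an exact two-sided permutation test without pairing gave p = 0.514. Aldara was lower in 4 of 4 same-numbered pairs (exact two-sided sign-flip permutation test, p = 0.125, the smallest that 4 pairs allow). None of the 14 genes was called (edgeR quasi-likelihood test, adjusted p threshold 0.05), beside 3.86% of all genes tested called lower and 6.98% called higher. Their median log2 fold change was −0.12. With the replicate number as a block 1 was higher and 2 were lower. With DESeq2 2 were lower, and with upper-quartile factors 1 was lower. The 15 macrophage genes summed to between 3310 and 8920 CPM in Aldara and between 1430 and 2770 CPM in Vehicle (exact two-sided permutation test, n = 4 each, p = 0.0286, the smallest these groups allow) and were higher in Aldara in 4 of 4 pairs (exact sign-flip permutation test, p = 0.125). Epithelial RNA was thus present in these libraries, but its presence does not show that the 7 genes are epithelial here. The counts do not show which cells carried the 7 transcripts. In such bulk samples fewer cells of a type and less RNA per cell cannot be told apart.

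All 7 genes are protein-coding on the GRCm38 build. Tmprss11a (ENSMUSG00000072845) lies on chromosome 5 at 86410410 to 86468990 and Aoc1 (ENSMUSG00000029811) on chromosome 6 at 48872896 to 48909188. Chromosome 7 holds Chst8 (ENSMUSG00000060402, 34674468 to 34812711), Fam83e (ENSMUSG00000054161, 45721212 to 45729492) and Ptpn5 (ENSMUSG00000030854, 47077795 to 47133684), which lie megabases apart. Olfm4 (ENSMUSG00000022026) lies on chromosome 14 at 79984081 to 80023139 and Sbp (ENSMUSG00000024128) on chromosome 17 at 23941672 to 23945607. Exons of 6 of the genes share no base with another annotated gene, whereas 153 exonic bases of Olfm4 are shared with the non-coding gene Gm6999. Reads from that stretch of Olfm4 cannot be told apart.

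Promoter sequence was examined because the genes were low together in Aldara. RefSeq gave 11 start sites for the 7 genes, and the 250 bases before each were searched on both strands for motifs of hormone receptors and general factors. The motifs were the oestrogen response palindrome (GGTCA and TGACC with any 3 bases between), the half-site AGGTCA, the steroid receptor palindrome (AGAACA and TGTTCT with any 3 bases between), its half-site AGAACA, the AP-1 site TGANTCA, the STAT site TTCNNNGAA, CCAAT and TATAAA. Each half-site overlaps the palindrome named before it. For each gene the start nearest the GENCODE gene start was taken. For Aoc1 (48895255) and Olfm4 (80000302) that start lay well inside the GENCODE gene, which begins at 48872896 and 79984081. Of the 7 windows taken, 3 held a match, in each case CCAAT or its reverse complement. These windows are shown with the match in capitals. Tmprss11a and Chst8 shared an order of levels over the Vehicle libraries that Olfm4 did not share, as described below.
Tmprss11a (chr5:86468991-86469240, minus strand, GRCm38.p6): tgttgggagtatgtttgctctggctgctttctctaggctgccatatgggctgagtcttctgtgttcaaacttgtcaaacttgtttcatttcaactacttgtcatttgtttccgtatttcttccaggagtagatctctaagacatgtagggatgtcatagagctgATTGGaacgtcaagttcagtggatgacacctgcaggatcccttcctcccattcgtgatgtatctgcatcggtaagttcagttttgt
Chst8 (chr7:34812712-34812961, minus strand, GRCm38.p6): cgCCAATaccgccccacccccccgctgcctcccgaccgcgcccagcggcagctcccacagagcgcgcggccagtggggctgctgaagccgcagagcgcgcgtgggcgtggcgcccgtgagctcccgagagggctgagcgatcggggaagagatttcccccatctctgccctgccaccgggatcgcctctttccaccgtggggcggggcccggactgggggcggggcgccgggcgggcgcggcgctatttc
Olfm4 (chr14:80000052-80000301, plus strand, GRCm38.p6): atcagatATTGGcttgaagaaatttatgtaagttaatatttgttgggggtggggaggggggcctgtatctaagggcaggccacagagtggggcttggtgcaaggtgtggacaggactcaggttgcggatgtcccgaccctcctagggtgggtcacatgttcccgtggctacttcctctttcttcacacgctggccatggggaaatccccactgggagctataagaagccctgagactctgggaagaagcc
The matches begin at position −86 in Tmprss11a, −248 in Chst8 and −243 in Olfm4, counted from the start site. CCAAT in either orientation occurs in 33.8% of the 32817 promoter windows of the same length. At other start sites, Aoc1 held an AP-1 match (6.75% of all windows), and Sbp held a STAT match (7.01%), a CCAAT match and a steroid receptor half-site (16.1%). The STAT and CCAAT matches of Sbp belonged to a start at 23922551, outside the GENCODE gene, which begins at 23941672. The base composition of the promoters shown differed widely, with 75.6% G and C before Chst8, 43.6% before Tmprss11a and 54% before Olfm4, beside a median of 52.4% over all windows. Neither palindrome was found in the 11 windows, where 0.064% of all windows hold the oestrogen palindrome and 0.00914% the steroid receptor one, and a match describes only the letters of these windows.

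Tmprss11a, the membrane protease, was the lowest of the 7 genes in Aldara. It had 1 count in Aldara replicate 1 (0.0427 CPM) and 0 counts in replicates 2, 3 and 4, where a count of 0 allows up to 0.12, 0.124 and 0.16 CPM. In Vehicle replicates 1 to 4 it measured 14.1, 5.16, 1.1 and 2.12 CPM. The groups did not overlap, and even the lowest Vehicle library, replicate 3, held 39 counts. Summed over libraries, 1 count in Aldara stood against 519 in Vehicle, a Vehicle over Aldara ratio of 433 (95% exact interval 77.4 to 17100). These limits and intervals, here and for the genes below, hold for counting error alone and leave out the spread between libraries. The reads were also amplified and carried no molecular identifiers.

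Aoc1, the diamine oxidase, measured 0.0427, 0.598, 0.0823 and 0.266 CPM in Aldara replicates 1 to 4, from 1, 15, 2 and 5 counts. In Vehicle replicates 1 to 4 it measured 221, 32.8, 2.23 and 22.4 CPM. The highest Vehicle library thus stood 99.2-fold above the lowest, and the lowest, replicate 3, was still 3.73-fold above the highest Aldara library. Vehicle replicate 1 alone held 79.4% of the Vehicle sum of Aoc1. The summed counts were 23 in Aldara and 6215 in Vehicle (Vehicle over Aldara ratio 225, 95% exact interval 150 to 356).

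Ptpn5, the phosphatase STEP, had the narrowest gap between the groups. It measured 1.45, 3.67, 1.28 and 7.03 CPM in Aldara replicates 1 to 4, against 194, 77.4, 8.36 and 48.9 CPM in Vehicle replicates 1 to 4. Vehicle replicate 3 was only 1.19-fold above Aldara replicate 4, although the means were 3.35 ± 2.68 and 82.3 ± 80 CPM (SD, n = 4 each). Ptpn5 still had 289 counts over the Aldara libraries.

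Chst8, the sulfotransferase, measured 1.02, 0.518, 0.823 and 1.38 CPM in Aldara replicates 1 to 4. In Vehicle replicates 1 to 4 it measured 34.2, 5.25, 2.17 and 4.14 CPM. Vehicle replicate 1 held 74.7% of the Vehicle sum, and the other 3 Vehicle libraries lay within 5.25 CPM, the lowest of them 1.57-fold above the highest Aldara library.

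Fam83e, the casein kinase scaffold, measured 2.69, 2.11, 1.52 and 0.852 CPM in Aldara replicates 1 to 4 and 52.7, 24.3, 3.22 and 5.17 CPM in Vehicle replicates 1 to 4. Here 2 Vehicle libraries were high and 2 were low, and the lowest, replicate 3, lay 1.2-fold above the highest Aldara library. Its log2 fold change was −3.54 (SE 0.89), and it was −2.57 without Vehicle replicate 1.

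Sbp, the spermine-binding protein, was the most uniform of the 7 genes. It measured 0.256, 0.199, 0.206 and 0.16 CPM in Aldara replicates 1 to 4, and 4.45, 3.52, 5.2 and 15.9 CPM in Vehicle replicates 1 to 4. Its highest Vehicle library was replicate 4, and the lowest, replicate 2, was 13.7-fold above the highest Aldara library. Sbp rested on 19 counts in Aldara and 852 in Vehicle (Vehicle over Aldara ratio 37.4, 95% exact interval 23.8 to 62.5). Its relative Sbpl had 0 counts in all 8 libraries.

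Olfm4, the crypt and neutrophil glycoprotein, measured 0.811, 2.19, 2.31 and 3.14 CPM in Aldara replicates 1 to 4. In Vehicle replicates 1 to 4 it measured 23.4, 21.3, 6.95 and 44.5 CPM. Vehicle replicate 3 was again the lowest, 2.21-fold above the highest Aldara library. Of the 13 neutrophil genes, Ly6g had 0 counts in every library, S100a8 46 counts in Aldara and 10 in Vehicle, and S100a9 41 and 0. Csf3r, a receptor that neutrophils and their precursors carry, measured 37.6 ± 16.9 CPM in Aldara and 8.73 ± 2.75 CPM in Vehicle (SD, n = 4 each). The whole list summed to 1180 to 1710 CPM in Aldara and 714 to 1070 CPM in Vehicle, mostly from Lcn2 and Ltf, which mammary epithelium also expresses, and 2 of its 3 tested genes rose and none fell. Over Aldara replicates 1 to 4 Csf3r measured 17.4, 31.2, 55.9 and 45.9 CPM. The macrophage gene Adgre1 had the same order, at 429, 707, 1410 and 1320 CPM. Which cells carried Csf3r was not tested, nor was the part of neutrophil RNA in the level of Olfm4.

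**Figure D1:**
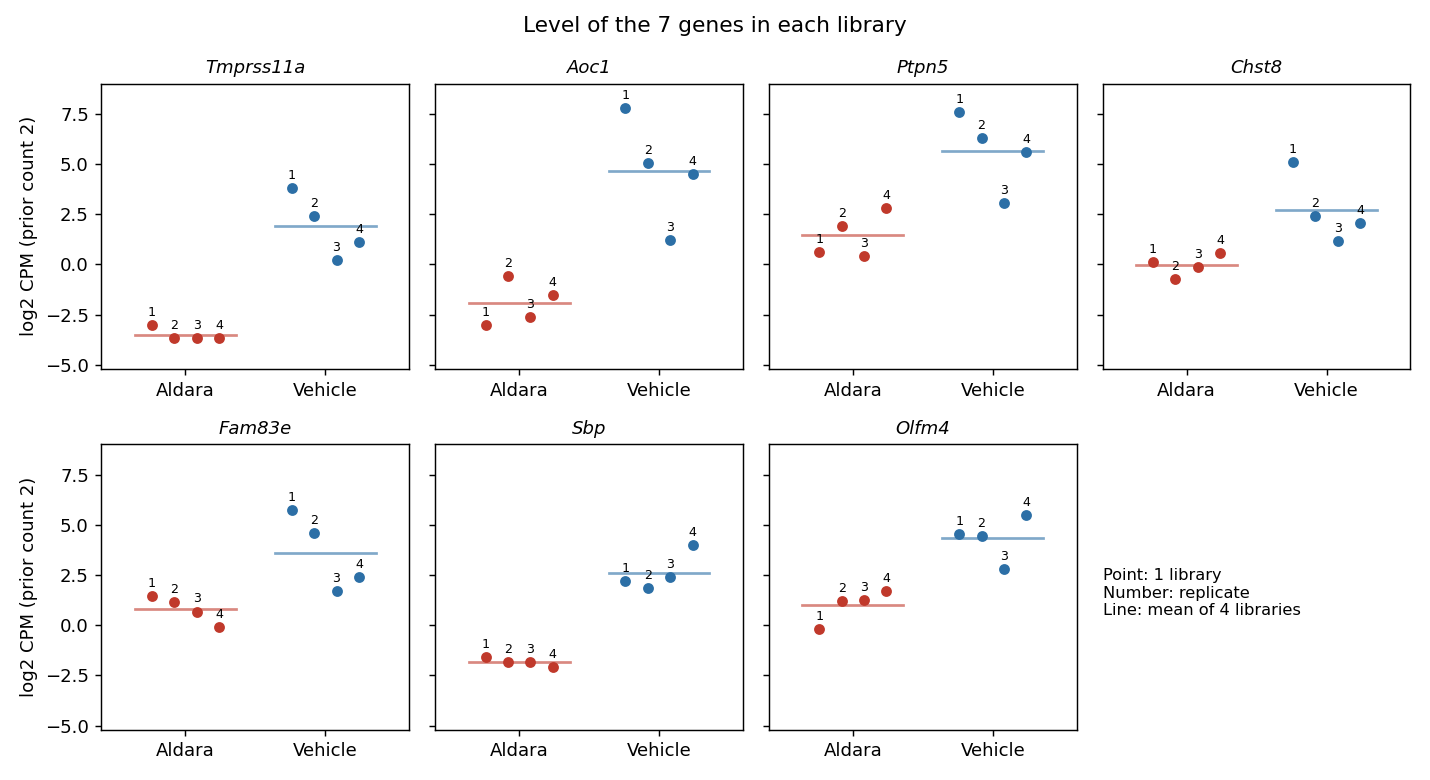
Log2 CPM (prior count 2, y axis) of each of the 7 genes in the Aldara (red, left) and Vehicle (blue, right) libraries, with the replicate number above each point and the group mean as a line. The groups do not overlap for any of the 7 genes, and Vehicle replicate 3 lies lowest for every gene except Sbp, where replicate 2 does.

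In the fitted log2 fold changes of Aldara minus Vehicle, the genes ranged from −8.45 (SE 1.36) for Tmprss11a and −8.08 (SE 1.76) for Aoc1 to −3.54 for Fam83e and −3.52 (SE 0.57) for Olfm4. Sbp lay at −5.11 (SE 0.61), Ptpn5 at −4.65 (SE 1.03), the median of the 7, and Chst8 at −3.61 (SE 0.91). The value of Tmprss11a depends on the prior count, since 3 of its 4 Aldara libraries are at 0. Their ranks among the falls of all 16780 genes were 1, 2, 5, 6, 17, 19 and 21. For each of the 7 genes every Aldara library lay below every Vehicle library, beside 7.79% of all genes tested, and 3.86% of all genes tested were called lower by edgeR. The genes were chosen on these values, so nothing is read from these counts. Without Vehicle replicate 1 the log2 fold changes were −7.45 for Tmprss11a, −6.22 for Aoc1, −3.77 for Ptpn5 and −2.05 for Chst8, and without Vehicle replicate 4 they were −4.38 for Sbp and −3.03 for Olfm4. In the other direction they were −10.14 for Tmprss11a without Aldara replicate 1, which held its single count, −9.11 for Aoc1 without Aldara replicate 2 and −5.28 for Ptpn5 without Aldara replicate 4. Tmprss11a was nearest to absent in Aldara, with at most 1 count in all 4 libraries. Aoc1 had at most 2 counts in 2 Aldara libraries but 15 in replicate 2, and its sum of 23 counts lay above the 19 of Sbp. Each of the 5 genes other than Tmprss11a and Aoc1 had at least 3 counts in all 4 Aldara libraries.

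The general epithelial genes differed far less than the 7 genes. Set against the mean log2 level of those 14 genes, which differed by −0.12, the differences of the 7 genes in log2 CPM (prior count 2) ranged from −2.62 for Chst8 to −6.45 for Aoc1. Epcam, an epithelial adhesion molecule, measured 1390 ± 100 CPM in Aldara and 1480 ± 45.2 CPM in Vehicle (SD, n = 4 each; edgeR adjusted p = 0.636). Summed over the 7 genes, the level was 6.22 to 12.8 CPM in Aldara and 29.2 to 545 CPM in Vehicle.

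Per kilobase of annotated exon, Olfm4 had the highest mean level in Aldara (0.713 ± 0.326 CPM per kb, SD, n = 4), followed by Ptpn5 (0.579 ± 0.462), Fam83e (0.467 ± 0.205), Chst8 (0.157 ± 0.0606), Sbp (0.14 ± 0.0268), Aoc1 (0.0759 ± 0.0778) and Tmprss11a (0.00187 ± 0.00374). Neighbours in this order overlapped over the Aldara libraries, except that Tmprss11a lay below Aoc1 in all of them. In Aldara replicate 1 both had 1 count, so the difference there came from exon length alone (5715 and 3256 bases). In Vehicle the order per kilobase was Aoc1 (21.4 ± 31.2), Ptpn5 (14.2 ± 13.8), Olfm4 (8.12 ± 5.23), Fam83e (5.55 ± 5.98), Sbp (4.94 ± 3.94), Chst8 (1.92 ± 2.55) and Tmprss11a (0.983 ± 1.03), and each neighbouring pair overlapped over the Vehicle libraries. Aoc1 was first in Vehicle through replicate 1 (67.9 CPM per kb), and was below Ptpn5 in replicates 2, 3 and 4. Without Vehicle replicate 1 the Vehicle means were 8.19 ± 6.4 for Olfm4, 7.75 ± 5.99 for Ptpn5 and 5.88 ± 4.77 CPM per kb for Aoc1 (SD, n = 3).

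The spread of the 7 genes between Vehicle libraries was wide. The SD of log2 CPM over the 4 Vehicle libraries was 2.7 for Aoc1, 1.9 for Ptpn5, 1.87 for Fam83e, 1.69 for Chst8, 1.56 for Tmprss11a, 1.11 for Olfm4 and 0.96 for Sbp, with a median of 1.69, beside a median of 0.2 over all genes tested. Aoc1 ranked 2nd and Ptpn5 12th of the 16780 genes by this SD, and Sbp, the least spread of the 7, ranked 302nd. A spread at least as wide as that of Sbp was found in 1.8% of all genes tested. Of those 302 genes, which include the 7, 26 were called lower (8.61%, beside 3.86% of all genes tested), 8 were called higher and 268 were not called. The 26 include the 7 as well. Those were chosen for low values in Aldara and wide spread in Vehicle, so nothing is read from that share. In Aldara the SD of log2 CPM was 1.13 for Ptpn5, 1.12 for Aoc1, 0.8 for Olfm4, 0.68 for Fam83e, 0.54 for Chst8, 0.31 for Tmprss11a and 0.2 for Sbp. Tmprss11a had at most 1 count and Sbp 3 to 6 counts in an Aldara library. The prior count of 2 draws such low counts together, so these SDs cannot be compared directly with those in Vehicle. Without Vehicle replicate 1 the Vehicle SD of Chst8 was 0.64, and without Vehicle replicate 4 that of Sbp was 0.28, so 1 library sets most of the spread of each of these genes. Without Vehicle replicate 3 the SD of Olfm4 was 0.58 and that of Ptpn5 1.01.

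**Figure D2:**
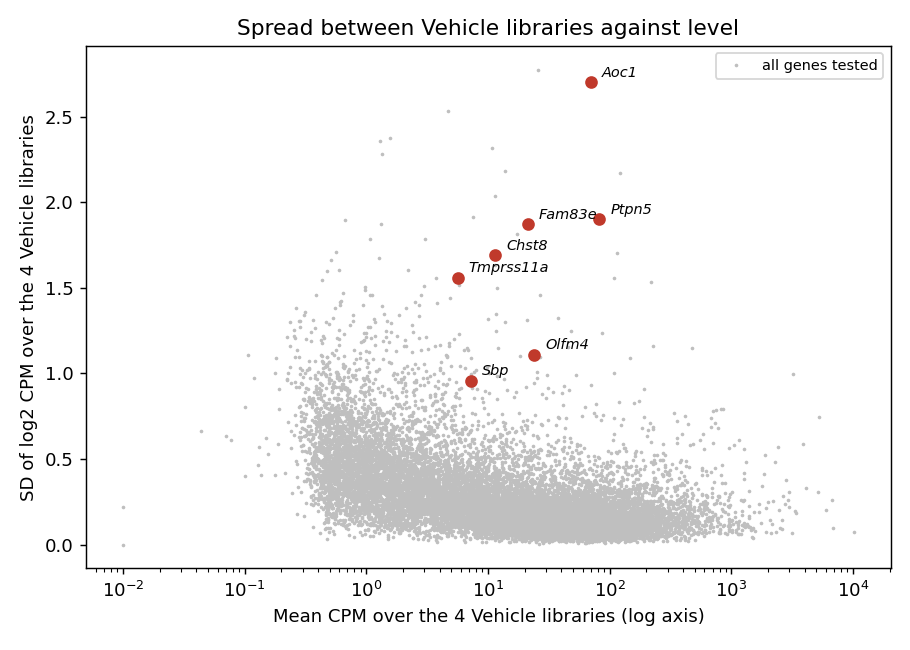
SD of log2 CPM over the 4 Vehicle libraries (y axis) against the mean CPM in Vehicle (x axis, log scale, genes under 0.01 CPM drawn at 0.01), with all tested genes in grey and the 7 genes in red. Aoc1 (2.7) lies near the top of all genes, and Sbp (0.96) is the lowest of the 7.

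The 7 genes fell into 2 patterns over the Vehicle libraries. Tmprss11a, Aoc1, Ptpn5, Chst8 and Fam83e were highest in replicate 1, then replicate 2, then replicate 4, and lowest in replicate 3. This order was found in 5 of the 7 genes and in 7.59% of all genes tested, replicate 1 highest with replicate 3 lowest in 13.6%, and replicate 1 highest in 27.3%. Within this set Tmprss11a and Fam83e were closest, with a root mean square difference of 0.37 between their log2 CPM after each gene's Vehicle mean was subtracted. Aoc1 had the same order with larger steps, 3.16 above its Vehicle mean in replicate 1 and −3.42 in replicate 3. Sbp and Olfm4 were highest in replicate 4, as were 20.9% of all genes tested. Sbp and Olfm4 differed from each other in replicate 3, where Olfm4 stood at −1.5 and Sbp at −0.21 relative to their Vehicle means. Aoc1 and Sbp were the least alike pair, with a root mean square difference of 2.59. With 4 libraries no correlation is given, and the order is a description of these libraries.

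**Figure D3:**
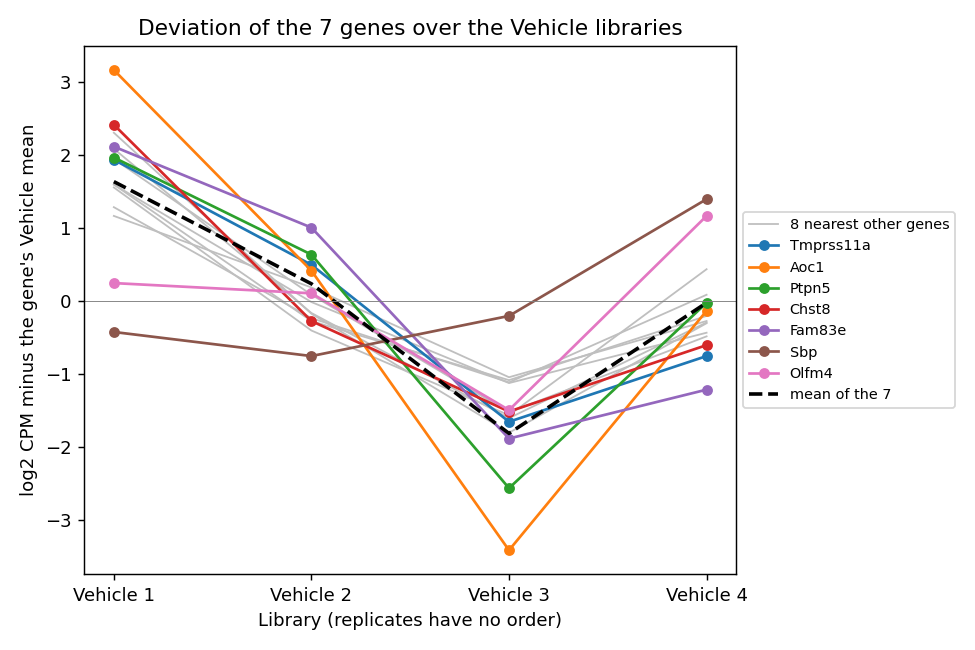
Log2 CPM of the 7 genes minus each gene's Vehicle mean (y axis) in the 4 Vehicle libraries (x axis). The mean of the 7 is dashed, and the 8 other genes most like that mean are in grey. Tmprss11a, Aoc1, Ptpn5, Chst8 and Fam83e peak in replicate 1 and are lowest in replicate 3, whereas Sbp and Olfm4 peak in replicate 4.

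The Vehicle libraries also differed in the RNA of other cell types. The 10 fibroblast genes summed to 592 CPM in Vehicle replicate 1, where 5 of the 7 genes were highest, and to 263, 236 and 219 CPM in replicates 2, 3 and 4. The 15 macrophage genes summed to 1430 CPM in Vehicle replicate 1 and 2770 CPM in replicate 3, with 2080 and 2040 CPM in replicates 2 and 4. The general epithelial genes differed by 1.42-fold between the Vehicle libraries, and the 7 genes by between 4.53-fold (Sbp) and 99.2-fold (Aoc1). Between the groups, fibroblast genes summed to 71.5 to 152 CPM in Aldara and 219 to 592 CPM in Vehicle, and 6 of the 10 fell (edgeR), beside 3.86% of all genes tested. That count was 2 without Aldara replicate 2, 3 without Aldara replicate 3 or 4 or Vehicle replicate 2, 4 without Vehicle replicate 1, 3 with a looser filter, and 8 with the replicate block or DESeq2. None of the 10 fibroblast genes was at 0, and the part of fibroblast or macrophage RNA in the values of the 7 genes was not tested. Krt1, a keratin of upper epidermis, measured 38.2 CPM in Vehicle replicate 3, where the 5 genes were lowest, and 1.08, 2.15 and 1.54 CPM in replicates 1, 2 and 4. The 12 stratified skin genes, none at 0 in all libraries, summed to 36.7 to 62 CPM in Aldara. In Vehicle replicates 1 to 4 they summed to 143, 47.5, 141 and 57.4 CPM. None of the 6 tested was called (median log2 fold change −1.04). Krt6a of this list went the other way from Krt1, at 115, 24.4, 15.2 and 38.1 CPM in Vehicle replicates 1 to 4. Of the 6 tested genes, 2 were highest in Vehicle replicate 1, and 1 was lowest in replicate 3.

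**Figure D4:**
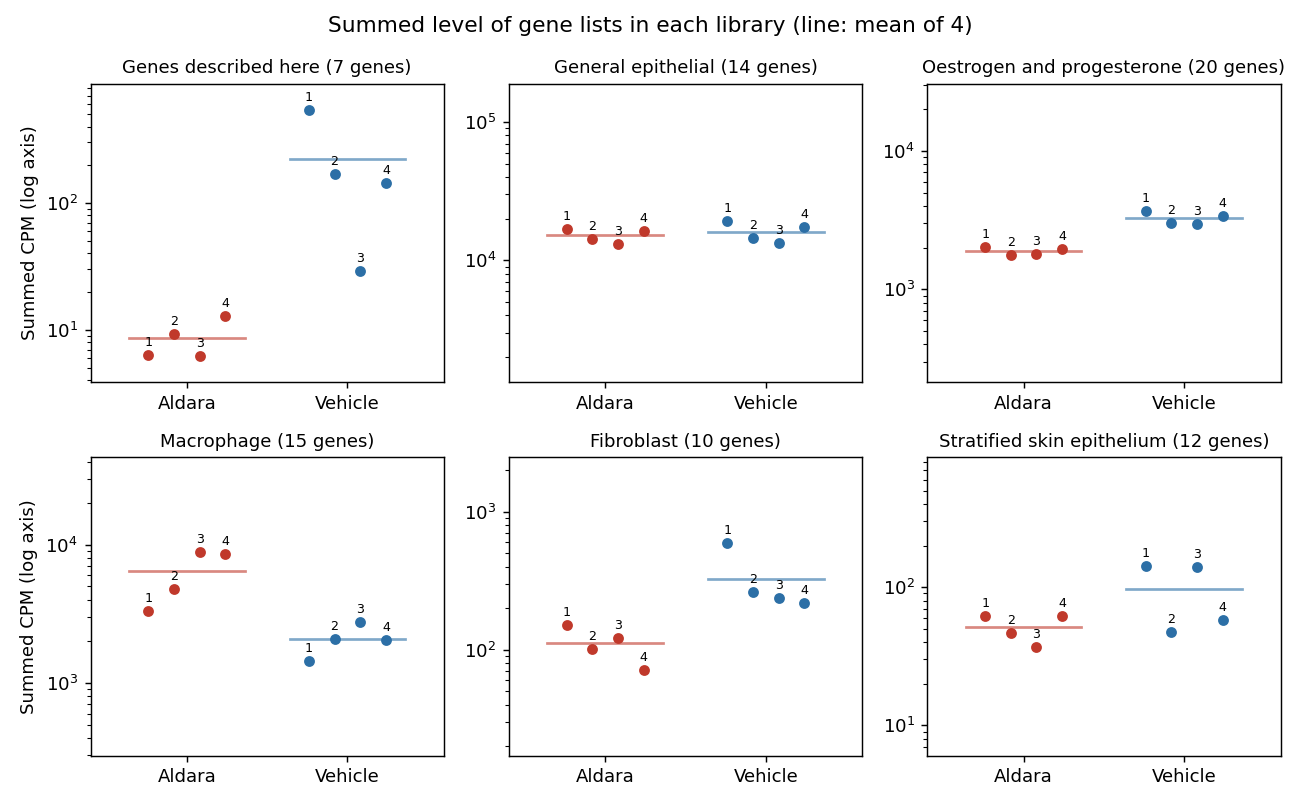
Summed CPM (log y axis) of 6 gene lists in each Aldara (red, left) and Vehicle (blue, right) library, with replicate numbers and the group mean as a line. The sum of the 7 genes is 6.22 to 12.8 CPM in Aldara and 29.2 to 545 CPM in Vehicle, while the general epithelial sum overlaps between the groups.

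The 8 genes whose Vehicle profile lay nearest to the mean profile of the 7 included Trabd2b, Padi2, Isyna1, Tmem86a, Ankrd37, Foxq1 and Faim2. Their root mean square differences from that profile were 0.33 to 0.47, beside 0.43 to 1.57 for the 7 genes themselves and a median of 1.23 over 13083 annotated genes with at least 1 CPM in Vehicle. Faim2, an inhibitor of Fas signalling known from neurons, measured 4.95, 6.54, 5.06 and 6.33 CPM in Aldara replicates 1 to 4 and 81.4, 41, 17.5 and 29.9 CPM in Vehicle replicates 1 to 4. It fell by 2.89 on the log2 scale (SE 0.43, edgeR adjusted p = 0.00545). Trabd2b, a membrane metalloprotease that cleaves Wnt proteins, fell by 2.7 (SE 0.68, adjusted p = 0.036), a call lost with the replicate block (adjusted p = 0.0653), with a looser filter, without Vehicle replicate 2 and without any 1 of the 4 Aldara libraries (highest adjusted p over 13 alternatives 0.151). The other 6 of these genes did not pass the test. Padi2, which converts arginine to citrulline, measured 73.2, 43.1, 46.8 and 48.6 CPM in Aldara, beside 593, 124, 45.6 and 114 CPM in Vehicle, so the groups overlapped (adjusted p = 0.133, passed without Vehicle replicate 3 and with DESeq2). Foxq1, a forkhead factor, passed with the replicate block (adjusted p = 0.0442), with DESeq2 and without Vehicle replicate 3. A Vehicle profile like the mean of the 7 genes was thus found in genes whose groups overlapped. Sbp itself lay 1.57 from that mean, farther than the median of 1.23, and Olfm4 lay 0.93 from it.

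Of 15 tested genes of the oestrogen and progesterone response 7 fell and 1 rose (median log2 fold change −0.4, beside 0.01 over all genes tested), and in all genes tested 3.86% fell and 6.98% rose. Greb1, an oestrogen receptor cofactor and target, measured 0.939, 1.16, 0.947 and 0.852 CPM in Aldara replicates 1 to 4 and 49.9, 12.5, 2.91 and 4.37 CPM in Vehicle replicates 1 to 4, the order of the 5 genes above (adjusted p = 0.0233, lost without any 1 of the 4 Aldara libraries, highest adjusted p = 0.106 among them). Pgr, the progesterone receptor, had this order too and fell by 1.88 (SE 0.36, adjusted p = 0.0119). Areg, an epidermal growth factor receptor ligand, fell by 2.32 (SE 0.36, adjusted p = 0.00623), and its Vehicle order was replicate 1, 4, 3 and 2. Myb, Ccnd1 and Id4 fell by 1.22, 0.9 and 0.98 (adjusted p = 0.00749, 0.00524 and 0.00923). Esr1, the oestrogen receptor itself, measured 242 ± 17.5 CPM in Aldara and 232 ± 32.5 CPM in Vehicle (SD, n = 4 each; edgeR adjusted p = 0.784). The count of falling genes on the list was 5 without Aldara replicate 2, 3 or 4. The Vehicle order of the 5 genes was found in 4 of these 15 genes, beside 7.59% of all genes tested. They were Greb1, Pgr, Cxcl12 and Igf1r, of which Cxcl12 and Igf1r did not pass (log2 fold changes −0.4 and 0.24). The same order was found in 4 of 12 basal and myoepithelial, 3 of 9 endothelial and 3 of 10 fibroblast genes. It was found in 2 of 14 general epithelial, 0 of 15 macrophage and 0 of 6 stratified skin genes.

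Among relatives and partners of the 7 genes few passed the test, as among all genes tested, of which 3.86% fell and 6.98% rose. The counts here and in the paragraphs below are a description beside these shares. For Tmprss11a, 1 of the 10 tested membrane serine proteases and inhibitors fell, and none rose (median −0.18). That gene, Tmprss2, measured 405 ± 89.7 CPM in Aldara and 607 ± 99.2 CPM in Vehicle (SD, n = 4 each; edgeR adjusted p = 0.049, and 0.0693 with the replicate block), a call lost without Aldara replicate 2, 3 or 4 or Vehicle replicate 2, 3 or 4. Tmprss4 measured 9.45 ± 2.05 and 17.5 ± 6.47 CPM (edgeR adjusted p = 0.0578, and 0.00836 with the block). Tmprss11f, a close relative too low to test, had 0 counts in Aldara and 44 in Vehicle, at 1.92 CPM in replicate 1 and at most 0.0914 CPM in the other Vehicle libraries. Tmprss11e had 10 counts in Aldara and 59 in Vehicle and was likewise highest in Vehicle replicate 1, at 1.55 CPM. These close relatives share a gene cluster with Tmprss11a, and some of their reads may be shared. Tmprss11f and Tmprss11e were singled out after their values were seen.

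Around Aoc1, 2 of 20 tested genes of histamine and polyamine turnover fell and 1 rose (median −0.03), and with the replicate block 5 fell and 2 rose. Hdc, which makes the histamine that Aoc1 degrades, rose and measured 13.4, 9.72, 13.3 and 15.7 CPM in Aldara replicates 1 to 4, against 6.8, 7.4, 4.89 and 8.38 CPM in Vehicle replicates 1 to 4 (log2 fold change 0.93, SE 0.19, adjusted p = 0.0135). The polyamine synthesis genes Srm and Amd1 fell by 0.4 each (adjusted p = 0.0307 and 0.0463). The call on Srm was lost without Aldara replicate 1, 2 or 3 or Vehicle replicate 1 or 4, and that on Amd1 without Aldara replicate 2, 3 or 4 or any 1 Vehicle library.

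For Chst8, 2 of the 12 tested sulfotransferases and partner enzymes rose and 1 fell (median −0.03). Chst7 measured 12.6 ± 4.81 CPM in Aldara and 5.62 ± 0.813 CPM in Vehicle (SD, n = 4 each; edgeR adjusted p = 0.0175, lost without Aldara replicate 3 or 4), and Chst14 rose by 0.51 (adjusted p = 0.0401, lost with upper-quartile scaling or a looser filter, and without any 1 library other than Vehicle replicate 2). B4galnt4, which builds the glycan that Chst8 sulfates, fell by 0.64 (adjusted p = 0.0357, lost without Aldara replicate 1, 3 or 4 or Vehicle replicate 2, 3 or 4). Chst9, the closest relative of Chst8 in function, measured 0.505 CPM in Aldara and 0.577 CPM in Vehicle (adjusted p = 0.897).

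Of 10 relatives and substrates of Ptpn5, 1 rose and none fell (median −0.02). It was Mapk14, the kinase p38 alpha, at 140 ± 19.1 CPM in Aldara and 102 ± 12.1 CPM in Vehicle (SD, n = 4 each; edgeR adjusted p = 0.0336, lost with upper-quartile scaling and without Aldara replicate 2, 3 or 4 or any 1 Vehicle library). Of 9 FAM83 and casein kinase genes 1 fell and none rose (median 0.07). Fam83f fell by 0.6 (adjusted p = 0.0448, lost without Aldara replicate 2, 3 or 4 or Vehicle replicate 1, 2 or 4), and Fam83g and Fam83h passed upwards with the replicate block (adjusted p = 0.0236 and 0.013). Among 5 tested olfactomedins 1 rose and none fell (median −0.1). Olfm1 rose by 0.74 (SE 0.16, adjusted p = 0.0151, lost without Aldara replicate 4), in the opposite direction to Olfm4. Of the 12 other secretory genes of androgen-responsive glands in the table, set beside Sbp, 5 had 0 counts in all libraries and neither of the 2 tested passed.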

How the data were processed

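RNA of 8 libraries was amplified with a SMARTer ultra-low-input kit and enriched for poly-A, per the labels' protocols. The kit does not mark strand. The deposited file holds whole-number read counts per gene, which were not normalised. The submitters' processing notes name build mm10 and, as tools, featureCounts 1.5.0-p3, HISAT2 2.0.5 and DESeq2. How multiply mapped reads were counted is not given in the sources used here. Total counts were 19537607 to 24340674 in Aldara and 21874780 to 34471508 in Vehicle (exact two-sided permutation test, n = 4 each, p = 0.286), where 1 count is worth at most 0.0532 CPM. Symbols were found for 52073 identifiers (91.8%), and positions and exon lengths come from GENCODE M21 (GRCm38, the build called mm10).

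Counts were tested with edgeR 4.0.16 in R 4.3.3 after filterByExpr and TMM scaling (factors 0.957 to 1.035), using robust quasi-likelihood F tests, a threshold of 0.05 and p-values adjusted by Benjamini-Hochberg over 16780 genes. Unless another tool is named, adjusted p-values come from this test. Deviations of same-numbered libraries from their group means correlated across genes (r = 0.23, 0.11, 0.17 and 0.22), so a fit with the replicate block was run beside it. DESeq2 1.42.0, other scalings, a looser filter and leaving out each library were also tried. The paired permutation tests, the levels per kilobase without Vehicle replicate 1 and the outlier ratios on the log2 scale were added after seeing the data. No library was a duplicate (lowest chi-square per degree of freedom between libraries of a group 18.2).

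The genes and the 20 lists beside them were chosen with earlier results of these data known. List genes were named by smallest p, at most 4 a list, and only some are printed. Genes of like profile were the 8 annotated genes with at least 1 CPM in Vehicle and the smallest root mean square difference from the mean profile of the 7, of which 1 is not reported here. Krt1, Krt6a, S100a8, S100a9, Ly6g, Chst9 and Sbpl were chosen after their values were seen.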

Additional observations from a re-analysis of the deposited data

Results flagged for a closer look

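In groups of 4 libraries, 1 library was taken to stand apart when its gap to the nearest other, divided by the range of the group, passed Dixon's critical value of 0.829 on the CPM scale. This was examined for 23 named genes in both groups, 46 sets in all, and chance flags about 1 in 20. The 7 genes and those of like profile were chosen with their spread over Vehicle known, so for them that rate does not apply and the ratios are a description. Of the 8 sets that passed, 4 belonged to the 7 genes. Vehicle replicate 1 stood above the other Vehicle libraries for Aoc1 (0.861) and Chst8 (0.904), and Vehicle replicate 4 for Sbp (0.865). On log2 CPM the largest ratios in Vehicle were 0.499 for Aoc1, 0.684 for Chst8 and 0.744 for Sbp, all below the critical value. For Tmprss11a in Aldara the ratio of 1 reflects a single count in replicate 1. Among genes of like profile, Vehicle replicate 1 stood apart for Padi2 (0.857), Tmem86a (0.872) and Ankrd37 (0.845). Areg in Aldara was highest in replicate 4 (0.848), at 311 CPM beside 106 to 137 CPM in the other Aldara libraries.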

How the results depend on the processing

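The median log2 fold change of the 7 genes, −4.65, kept its direction under every alternative run, between −5.05 and −3.77 when 1 library was left out and at −4.26 with the replicate block. All 7 genes were lower in Aldara in each of the 13 alternatives. The median spread over Vehicle, 1.69, lay between 1.34 and 2.06 when 1 Vehicle library was left out. Over all genes, 647 fell and 1171 rose. The number of falling genes was 990 with upper-quartile factors, 1198 with DESeq2 and 1030 with the replicate block, and between 323 and 664 when 1 library was left out, with 629 to 1405 rising genes. The share of rising genes among the calls was 64.4% with TMM and 49.7% with upper-quartile factors. Without a filter beyond 1 count the calls on Greb1 (adjusted p = 0.112) and Pgr (0.0628) were lost. Pools of 4 per group and amplified low-input RNA limit precision. The count of 0 for Tmprss11a in Aldara replicates 2, 3 and 4 allows up to 0.12, 0.124 and 0.16 CPM.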
